A study of Homo sapiens with 9 samples.

Results

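The mTOR pathway genes described here are 44 genes that encode the kinase mTOR, the other subunits of its complexes, the proteins that switch it on and off, and its nearest substrates. Members were found as every probe set whose annotated symbol is, or includes among several, a gene of that list. The array annotation paired 103 probe sets with 41 of the 44 genes, out of 54613 probe sets and 19775 genes in all. PIK3CA, PIK3R2 and LAMTOR1 had no probe set in that annotation and are unnamed here.

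RNA came from vesicles released by the H9 line, established human embryonic stem cells (hESCs) grown without serum or feeder cells in mTeSR1 medium on Matrigel. Medium was conditioned for 24 hours at 80% confluence and cleared at low speed. A spin of 1 hour at 16500g then gave the microvesicle (MV) pellet. What stayed in suspension gave the exosome (EXO) pellet after 2 hours at 120000g. By the labels, non-fractionated vesicles (hESEVs) came from medium spun directly at 120000g for 2 hours, while the study's text gives other speeds and times for them. The medium of MVs and EXOs had a clearing spin at 2800g that the labels do not list for hESEVs. Each of the 3 groups had 3 arrays, all from the same line without a treatment, so that the pellet defines the group. Fractions made by speed overlap in size and are no pure vesicle types, and the arrays do not measure the parent cells.

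mTOR is a protein kinase that works in a pair of complexes. mTORC1, with RPTOR as its scaffold, promotes protein synthesis and restrains autophagy, and mTORC2, with RICTOR and MAPKAP1, phosphorylates AKT. Amino acids bring mTORC1 to the lysosome through the Rag GTPases, which a scaffold called Ragulator (the LAMTOR proteins) holds on the membrane. There the GTPase RHEB activates the kinase, unless the TSC complex, the meeting point of growth factor, energy and stress signals, keeps RHEB off. The pathway supports growth and self-renewal of pluripotent stem cells, and mTOR signaling is among the pathways that the study considered for its vesicle mRNAs. The question was which mRNAs of the pathway differed between MVs and EXOs.

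The mRNAs that were higher in MVs included 3 of Ragulator and 3 of the mTOR complexes. With 1 representative probe set per gene, 9 of the 41 genes (22.0%) were higher in MVs, against 10.9% of all genes. These were EIF4EBP1, LAMTOR2, LAMTOR4, LAMTOR5, RRAGA, RHEB, MLST8, RPTOR and MAPKAP1. DEPTOR alone was higher in EXOs, 1 of 41 against 2.14% of all genes. The other 31 genes did not pass the test. A gene was called at a limma adjusted p under 0.05 and at least 2-fold, and the representative is the probe set with the highest mean signal.

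Taken by probe set, 15 of the 103 (14.6%) were higher in MVs, against 7.23% of all probe sets. A single member probe set was lower in MVs, where 1.97% of all probe sets were. The median log2 fold change, MVs minus EXOs, was -0.05 over the member probe sets and -0.29 over all probe sets. By gene it was 0.17 over the members and -0.23 over all genes. The 3 MVs arrays lay above all 3 EXOs arrays for 25 member probe sets (24.3%), as for 13.3% of all probe sets. They lay below for 19 (18.4%), as for 21.7% of all probe sets. Without MVs replicate 3, 9 member probe sets were higher in MVs, and the share of all probe sets without this array is not given.

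Many of these probe sets are marked by the manufacturer as able to bind more than 1 transcript. Their names end in _s_at, _x_at or _a_at. Of the 37 member probe sets so marked, 11 (29.7%) were higher in MVs, against 13.2% of all marked probe sets. Of the 66 others, 4 (6.06%) were higher in MVs, against 4.50% of all probe sets without the mark. Those 4 belonged to EIF4EBP1, LAMTOR2, LAMTOR5 and RPTOR.

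Signals are MAS5 intensities, scaled by the authors so that every array has the same trimmed mean. A cautious background level was read from genes restricted to other tissues, such as liver and muscle. It was 1138 in MVs, 1324 in EXOs and 1242 in hESEVs, the 90th percentile of 31 such genes in each group. The medians of these genes were 255, 471 and 458, so that a signal under the level is not shown to be background. Of the 41 member genes, 8 (19.5%) had a mean above this level in MVs, 4 (9.76%) in EXOs and 9 (22.0%) in hESEVs. Among all genes the shares were 16.8%, 8.69% and 11.5%. Of the 9 genes higher in MVs, 4 lay above the level in MVs and RHEB alone did so in EXOs, and DEPTOR lay below it in both fractions. A fold change against a signal under this level has an uncertain size. The arrays received equal amounts of RNA and were scaled to the same trimmed mean. A signal is therefore relative to the RNA on its array and does not give copies per vesicle. How many vesicles held an mRNA was not measured either.

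**Figure D1:**
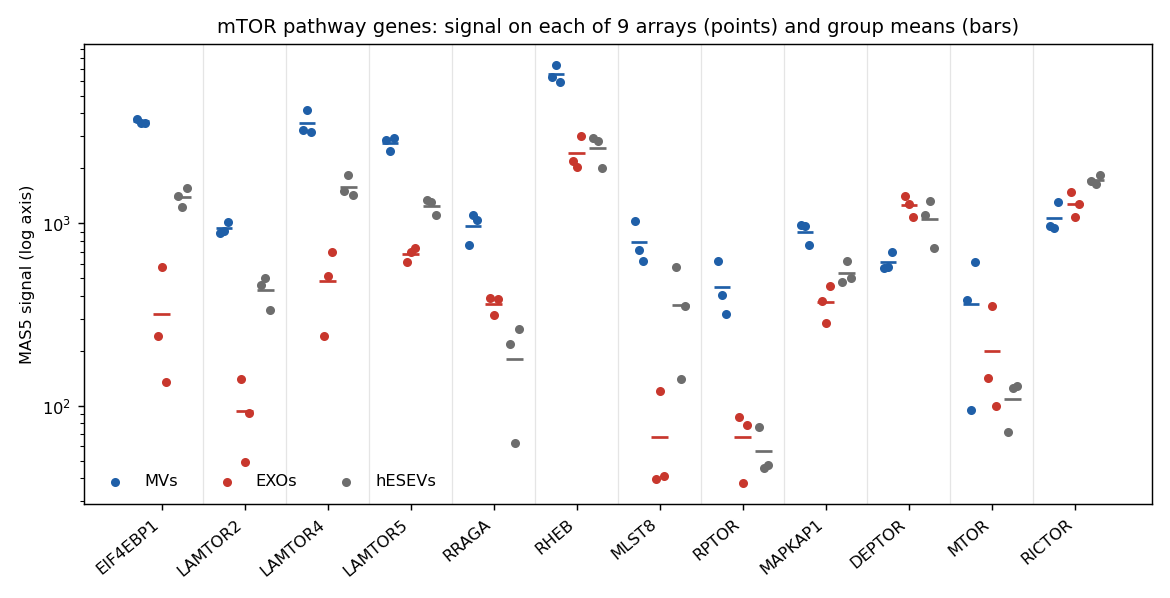
MAS5 signal, on a log axis, of the representative probe set of the 10 called genes and of MTOR and RICTOR on each of 9 arrays (points, 3 per group) with the group means as bars. MVs (blue) lay above EXOs (red) without overlap for the 9 genes from EIF4EBP1 to MAPKAP1, while DEPTOR showed the opposite order and MTOR and RICTOR overlapped.

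The promoters of LAMTOR2 and LAMTOR4, members of the same scaffold that were both higher in MVs without overlap, are printed here as examples. LAMTOR5 was also higher in MVs without overlap and is not printed. Each is the 250 bases before the start of the gene's transcript, 5′ to 3′ on the coding strand, from RefSeq (GRCh38.p14). LAMTOR2 was read from chr1:156054532-156054781, plus strand, and LAMTOR4 from chr7:100148668-100148917, plus strand. Capitals mark CACGTG, an E-box that TFEB and TFE3, transcription factors of lysosomal genes, can bind. This motif is its own reverse complement, so that both strands were searched at once.

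LAMTOR2: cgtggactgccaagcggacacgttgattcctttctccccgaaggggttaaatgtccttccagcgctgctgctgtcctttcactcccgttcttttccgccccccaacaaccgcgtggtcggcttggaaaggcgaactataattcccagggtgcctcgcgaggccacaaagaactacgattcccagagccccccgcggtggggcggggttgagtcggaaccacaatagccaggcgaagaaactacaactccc
LAMTOR4: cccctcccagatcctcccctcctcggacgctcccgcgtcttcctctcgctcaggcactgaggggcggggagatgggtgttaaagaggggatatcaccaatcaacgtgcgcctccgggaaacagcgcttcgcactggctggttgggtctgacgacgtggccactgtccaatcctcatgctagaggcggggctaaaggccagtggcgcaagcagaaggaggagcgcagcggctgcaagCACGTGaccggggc

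LAMTOR4 had the motif once, 14 bases before the start, and LAMTOR2 did not hold these letters in this window. A promoter entry was found for 38 of the 44 genes, with 53 promoters in all. Of these promoters 6 (11.3%) held the motif, those of LAMTOR1, LAMTOR4, PRR5, RRAGB, RRAGC and TSC2, against 2228 of 35116 promoters of all genes (6.34%). The median GC content was 65.6% in the members' promoters and 58.0% in all. GC content was 58.8% for LAMTOR2 and 64.4% for LAMTOR4. Among the called genes with a promoter entry, LAMTOR4 alone held the motif, and LAMTOR5 did not. Both fractions came from the same cell line, and whether the motif relates to the fractions was not tested.

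LAMTOR2 (gene ID 28956), which pairs with LAMTOR3 inside Ragulator, gave 885, 906 and 1021 in MVs and 139.9, 49.5 and 90.7 in EXOs (replicates 1 to 3). All MVs arrays lay above all EXOs arrays. The fold change was 10.9 (log2 3.45, SE 0.52, limma adjusted p = 0.0042). Its mean lay under the background level in both fractions.

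LAMTOR4 (gene ID 389541), a small Ragulator subunit that pairs with LAMTOR5, gave 3233, 4199 and 3152 in MVs and 241, 517 and 697 in EXOs. Every MVs array lay well above background and every EXOs array below it. LAMTOR4 was 7.90-fold higher in MVs (log2 2.98, SE 0.36, limma adjusted p = 0.0014).

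LAMTOR5 (gene ID 10542) was the member with the smallest p. Its probe set 202299_s_at gave 2865, 2483 and 2930.2 in MVs and 611, 694 and 735 in EXOs, with little spread in either fraction. The fold change was 4.06 (log2 2.02, SE 0.14, limma adjusted p = 4.4e-05). Its second probe set, 202300_at, gave 2424, 1951 and 2492 against 872, 726 and 682, again without overlap (log2 1.59, limma adjusted p = 0.00046). LAMTOR5 was thus higher in MVs by both of its probe sets, of which 202300_at carries no mark for shared transcripts.

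LAMTOR3 (gene ID 8649) had a mean of 747 ± 123 in MVs and 518 ± 238 in EXOs (± SD, n = 3 arrays per group, as for all means that follow) with overlapping arrays, and neither of its probe sets was called. Of the 4 Ragulator genes measured, 3 were therefore higher in MVs, against 10.9% of all genes. Whether roles differed from each other was not tested.

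Among the Rag GTPases, RRAGA (gene ID 10670), which binds mTORC1 as a dimer with RRAGC or RRAGD, was higher in MVs. It gave 758, 1109 and 1035 in MVs and 392, 314 and 382 in EXOs, without overlap. The fold change was 2.65 (log2 1.40, SE 0.25, limma adjusted p = 0.0095), with both means under the background level. The call was lost without MVs replicate 2 (log2 1.30) or MVs replicate 3 (log2 1.35).

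RRAGB and RRAGC were not called by any probe set. RRAGC had means of 1349 ± 168 in MVs and 1218 ± 83.7 in EXOs, and RRAGB lay far under background in both. RRAGD differed between its probe sets. Its representative gave 766, 811 and 1006 against 1139, 579.7 and 1052, an overlap, while 221524_s_at gave 690.3, 776 and 994 against 416, 128 and 142. The latter was called higher in MVs (log2 2.05, limma adjusted p = 0.038), was chosen for the text after its value was seen, and lost its call without any single MVs array or without EXOs replicate 2 or 3 (log2 1.74 to 2.16). FLCN, the GTPase-activating protein for RRAGC and RRAGD, and the leucine sensors SESN1 and SESN2 were not called. Their means were 588 ± 61.3 in MVs and 866 ± 201 in EXOs for FLCN, 766 ± 115 and 934 ± 42.7 for SESN1, and 730.5 ± 77.9 and 932 ± 109.9 for SESN2. For FLCN, SESN1 and SESN2 alike, all MVs arrays lay below all EXOs arrays, as for 22.8% of all genes. All 5 probe sets of FLCN had negative log2 fold changes. Of the 11 measured genes of amino acid sensing at the lysosome, 4 rose in MVs and 7 did not pass the test, where 10.9% of all genes were higher in MVs.

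In the complexes, RPTOR, MLST8 and MAPKAP1 were higher in MVs, while the kinase itself did not pass the test. MTOR (gene ID 2475) has 2 probe sets. Its representative gave 378, 94.6 and 616 in MVs and 142, 353 and 100.04 in EXOs, an overlap within a wide spread (log2 0.71, SE 0.85, limma adjusted p = 0.62). The other, 202288_at, gave 243, 282 and 346 against 59.8, 237 and 44.7. These arrays did not overlap, but the limma adjusted p was 0.18 (log2 1.74). All group means of MTOR were under the background level.

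RPTOR (gene ID 57521), which recruits the substrates of mTORC1, gave 619.9, 406 and 319.8 in MVs and 86.7, 37.7 and 78.6 in EXOs. The arrays did not overlap, and the fold change was 6.80 (log2 2.76, SE 0.61, limma adjusted p = 0.026). Both means lay under the background level. The call was lost without MVs replicate 1 (log2 2.50), 2 (2.81) or 3 (2.98) and without EXOs replicate 2 (2.39) or 3 (2.92).

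MLST8 (gene ID 64223), a subunit of both complexes that binds the kinase domain, gave 1034, 717 and 621 in MVs and 39.7, 121 and 41.3 in EXOs. The lowest MVs array was over the highest EXOs array by a wide gap. The fold change was 13.2 (log2 3.73, SE 0.64, limma adjusted p = 0.0082), with both means under the background level.

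MAPKAP1 (gene ID 79109), also called SIN1, the mTORC2 subunit that brings the complex to its substrates, gave 972, 969 and 757 in MVs and 376, 282 and 455 in EXOs. The fractions did not overlap, and MAPKAP1 was 2.45-fold higher in MVs (log2 1.29, SE 0.27, limma adjusted p = 0.019). Its mean lay under the background level in both fractions. All 4 of its probe sets had a positive log2 fold change, and 1 was called. The call was lost without MVs replicate 1 (log2 1.23) or 2 (log2 1.24).

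RICTOR (gene ID 253260), the defining subunit of mTORC2, overlapped between the fractions. It gave 962, 939.7 and 1302 in MVs and 1475, 1087 and 1283 in EXOs (log2 -0.27, limma adjusted p = 0.39). None of its 4 probe sets was called, and 3 of them had a negative log2 fold change. Whether RICTOR and RPTOR differed from each other in this was not tested.

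DEPTOR (gene ID 64798), an inhibitor that binds mTOR in both complexes, had the opposite order. It gave 570.1, 579 and 698 in MVs and 1416, 1270.3 and 1079 in EXOs, without overlap. DEPTOR was 2.03-fold higher in EXOs (log2 -1.02, SE 0.18, limma adjusted p = 0.0097), and 2 of its 3 EXOs arrays lay under the background level. The fold fell under 2-fold without MVs replicate 1 (log2 -0.97) or 2 (log2 -0.98), without EXOs replicate 1 (log2 -0.93) and with each array centred on its median (log2 -0.79). Its second probe set was not called.

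AKT1S1, the mTORC1 inhibitor also called PRAS40, and PRR5, an mTORC2 subunit, were not called. AKT1S1 had means of 101 ± 85.4 in MVs and 142 ± 131 in EXOs, and PRR5 had 844 ± 38.1 and 717 ± 200.2. Of the 8 genes of the complexes, 3 rose in MVs, DEPTOR fell and 4 did not pass the test, against 10.9% and 2.14% of all genes in these directions.

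RHEB (gene ID 6009), the GTPase that activates mTORC1, differed in direction between its probe sets. Its representative, 201453_x_at, gave 6334, 7372 and 5971 in MVs and 2203, 2028 and 3005 in EXOs, all above background and without overlap. The fold change was 2.75 (log2 1.46, SE 0.16, limma adjusted p = 0.00083). Probe sets 213404_s_at (log2 1.10, limma adjusted p = 0.011) and 1555780_a_at (log2 1.57, limma adjusted p = 0.023) were called in the same direction. The other 6 of its 9 probe sets had negative log2 fold changes, none of them called. All 3 called probe sets carry a mark for shared transcripts.

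The RHEB result also depended on how the arrays were scaled. On each of the 6 arrays the representative was among the brightest probe sets, with 1.17% to 1.36% of all probe sets above it in MVs and 0.956% to 1.79% in EXOs. With quantile normalization, which gives all arrays the same distribution of signals, its log2 fold change was 0.09 (limma adjusted p = 0.82). Its value was -0.27 with the probe sets marked as shared left out, and -0.0069 with the 9 averaged. The calls of 213404_s_at and 1555780_a_at were lost without MVs replicate 3 (log2 0.96 and 1.49), and that of 1555780_a_at also without MVs replicate 1 (log2 1.46) or EXOs replicate 3 (log2 1.65).

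**Figure D2:**
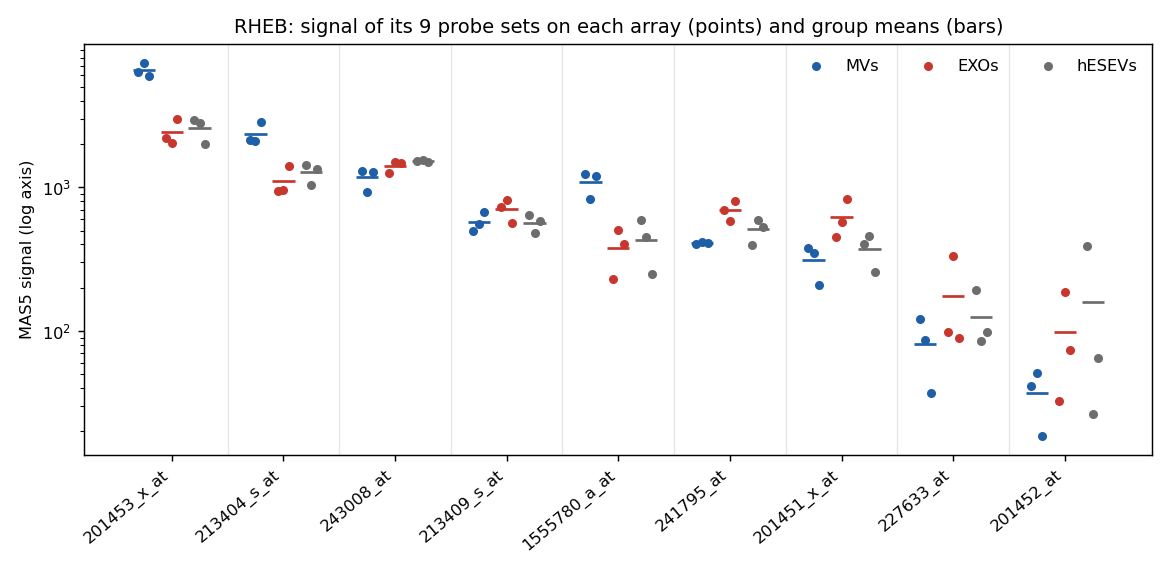
MAS5 signal, on a log axis, of each of the 9 RHEB probe sets on each array (points, 3 per group), with group means as bars. MVs (blue) lay above EXOs (red) for 201453_x_at, 213404_s_at and 1555780_a_at, and the other 6 probe sets had lower means in MVs than in EXOs.

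The TSC complex, which inactivates RHEB, was not called. TSC2 (gene ID 7249), its GTPase-activating subunit, gave 213, 616 and 308 in MVs and 1265, 980.2 and 782 in EXOs by its representative, without overlap and just outside the threshold (log2 -1.53, limma adjusted p = 0.051). Its other probe set, 215735_s_at, gave 121, 323 and 338 against 52.0, 67.2 and 26.8, without overlap in the opposite direction (log2 2.29, limma adjusted p = 0.054). TSC2 therefore had no single direction on these arrays, and with its probe sets averaged the log2 value was 0.38. Its representative was called without MVs replicate 2 (log2 -1.95), and 215735_s_at without MVs replicate 1 (log2 2.78). TSC1, its partner, had means of 757 ± 179.7 and 748 ± 75.7, and TBC1D7, the third subunit, had 881 ± 158 and 665 ± 214.

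Growth factor input held no called representative. PIK3CB, a catalytic subunit of PI 3-kinase, had means of 769.8 ± 229.9 in MVs and 300.3 ± 114 in EXOs without overlap (log2 1.38, limma adjusted p = 0.068). PIK3R1, the regulatory subunit, had 609 ± 55.2 and 1003 ± 142, also without overlap (log2 -0.71, limma adjusted p = 0.050, under 2-fold). PDPK1, which activates AKT, had 1499.7 ± 751 and 1725 ± 295.

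AKT1 had means of 219 ± 114 and 178 ± 80. AKT2, the kinase that links insulin to glucose uptake, again differed between its 7 probe sets. Probe set 225471_s_at, chosen for the text after its value was seen, gave 788, 845 and 729 in MVs and 135, 172 and 229.6 in EXOs and was called (log2 2.17, limma adjusted p = 0.0070). Its call was lost without MVs replicate 2 (log2 2.12, limma adjusted p = 0.051). The representative of AKT2 gave 453, 549 and 534 against 711, 876 and 972 and was not called, and all 6 other probe sets had negative log2 fold changes.

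None of the 6 energy and stress genes was called in MVs against EXOs. DDIT4, also called REDD1, which turns mTORC1 off in low oxygen, had means of 1192 ± 235 and 706 ± 127 without overlap (log2 0.76, limma adjusted p = 0.061). PRKAA2, a catalytic subunit of the energy sensor AMPK, had 599 ± 158 and 1079 ± 171 without overlap (log2 -0.88, limma adjusted p = 0.065). STK11, also called LKB1, the kinase that activates AMPK, had 842 ± 125 and 684 ± 55.3 without overlap. PRKAA1 had 924 ± 214 and 1122 ± 154, PRKAB1 had 560.1 ± 174 and 668 ± 157, and PRKAG1 had 609 ± 384 and 414 ± 301, each with overlapping arrays.

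Among the outputs, EIF4EBP1 (gene ID 1978), the repressor of cap-dependent translation that mTORC1 phosphorylates, was higher in MVs. It gave 3726, 3563 and 3547 in MVs, within a narrow range, and 242, 576 and 136 in EXOs. No arrays overlapped, and EIF4EBP1 was 13.6-fold higher in MVs (log2 3.76, SE 0.46, limma adjusted p = 0.0014). It has 1 probe set, without a mark for shared transcripts, and its MVs mean was above background while its EXOs mean was not.

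Its relative EIF4EBP2 did not follow by its representative, with 1323, 1800.3 and 1942 against 1889, 1479 and 2189, an overlap (limma adjusted p = 0.69). Of its 5 probe sets, 208770_s_at was called, with 1900.2, 1797 and 1987 in MVs and 1262, 764 and 829.7 in EXOs (log2 1.03, limma adjusted p = 0.015). It was chosen for the text after its value was seen. Its call was lost without MVs replicate 1 (log2 1.03) or 3 (0.99) and without EXOs replicate 2 (0.89) or 3 (0.95).

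The S6 kinases RPS6KB1 and RPS6KB2, which phosphorylate the ribosomal protein RPS6, were not called. RPS6KB1 had means of 1136 ± 159 in MVs and 1486 ± 154 in EXOs without overlap, and RPS6KB2 had 664 ± 227 and 384 ± 62. RPS6KA1 had 600.0 ± 197 and 548 ± 240.0, RPS6KA3 had 331 ± 121 and 413 ± 56.2, and neither was called. Their place among the outputs is a label of the list and does not make them substrates of mTORC1. ULK1, the autophagy kinase that mTORC1 restrains, had 186 ± 137 and 182 ± 87.9 and was not called. The 31 genes not called had log2 fold changes from -1.53 to 1.38, of which 13 were positive and 18 negative, with adjusted p from 0.050 to 0.99 (limma).

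**Figure D3:**
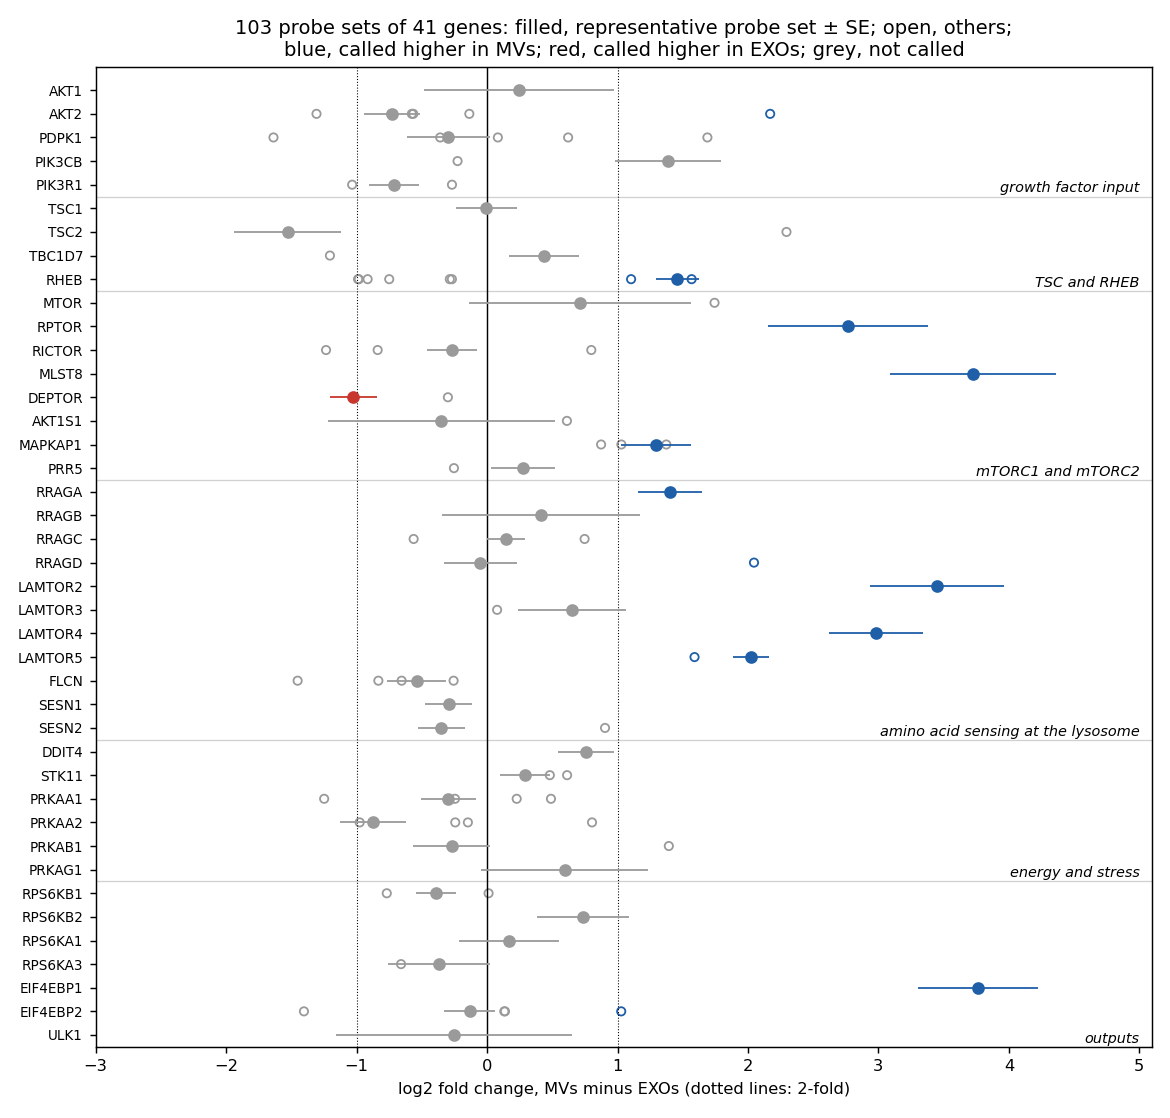
The log2 fold change, MVs minus EXOs, of all 103 probe sets of the 41 genes, grouped by role, with filled points for the representative (± SE) and open points for the others, and dotted lines at 2-fold. Of the 15 probe sets called higher in MVs (blue), 6 belonged to lysosomal genes, 3 each to the complexes and to RHEB, 2 to outputs and 1 to growth factor input, and DEPTOR (red) was the only probe set called higher in EXOs.

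Disagreement between probe sets of a gene was common. Of the 41 genes, 26 had several probe sets and 15 had 1. In 17 of the 26 the probe sets had both signs. Of the 13 genes with any called probe set, 6 also had probe sets that were not called. Different probe sets can bind different transcript ends or isoforms, and which applied here was not tested.

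By group means, non-fractionated hESEVs lay between the fractions for 7 of the 9 genes higher in MVs. Among all genes this held for 2033 of the 2149 higher in MVs. EIF4EBP1 gave 1408, 1224 and 1559 in hESEVs, between MVs and EXOs without overlap. LAMTOR4 gave 1503, 1835 and 1426, LAMTOR5 gave 1333, 1304 and 1108, and LAMTOR2 gave 457, 501 and 333, each again between the fractions. Over the 41 genes, the hESEVs mean lay between the other means for 19 (46.3%), against 52.6% of all genes. The comparisons with hESEVs share their MVs or EXOs arrays with the comparison above.

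RPTOR and RRAGA did not lie between the fractions. RPTOR gave 76.2, 45.3 and 47.2 in hESEVs, within the range of low EXOs values. RRAGA gave 217, 62.7 and 263, below every EXOs array. RHEB was near the EXOs level, with 2925, 2816 and 2003. MLST8 ranged widely, with 577, 141 and 353, and MAPKAP1 gave 479, 621 and 499.

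Against MVs, 7 member probe sets were lower in hESEVs, where 4.25% of all probe sets were, and 2 were higher, where 1.05% were. The lower ones were those of RPTOR (log2 fold change, hESEVs minus MVs, -2.98), RRAGA (-2.64), RRAGD 221524_s_at (-2.62), AKT2 225471_s_at (-2.03), STK11 231017_at (-1.80), RHEB 201453_x_at (-1.36) and LAMTOR5 202299_s_at (-1.15). The higher ones were PRKAA1 1555177_at (1.34) and PRKAA2 240349_at (1.18). The representative of PRKAA1 is another probe set, 225985_at, which was not called (log2 0.29, limma adjusted p = 0.48). By representative, 4 of the 41 genes were lower in hESEVs (9.76%, against 6.57% of all genes). PRKAA2 alone was higher (2.44%, against 1.13%). PRKAA2 gave 1183, 1527 and 1267 in hESEVs and 682, 697 and 417 in MVs, without overlap. With each array centred on its median, 12 were lower and 0 higher. The count of 7 fell to 3 without MVs replicate 2 and to 4 without MVs replicate 3. The count of 2 fell to 1 without MVs replicate 1 or 3 or hESEVs replicate 2 or 3.

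Against EXOs, 3 member probe sets were higher in hESEVs, where 1.95% of all probe sets were. These were EIF4EBP1 (log2 fold change, hESEVs minus EXOs, 2.38, limma adjusted p = 0.0073), LAMTOR2 (2.31, limma adjusted p = 0.021) and LAMTOR4 (1.83, limma adjusted p = 0.0097). The count was 1 without hESEVs replicate 2 and 2 without hESEVs replicate 1 or without any single MVs array, which enter this fit through the shared spread. By limma 0 member probe sets were lower in hESEVs, where 0.103% of all were. At an unadjusted p under 0.05 and 2-fold there were 4 by limma and 0 by the methods' unpaired test. The shares of all probe sets at that threshold are not given. RICTOR gave 1695, 1645 and 1829 in hESEVs, above all arrays of both fractions, with a limma adjusted p of 0.030 against MVs and 0.33 against EXOs and a difference under 2-fold in both.

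A further 54 genes of the pathway were measured. By representative 9 of these were higher in MVs and ULK2 alone was higher in EXOs, while 44 were not called. The shares were 16.7% and 1.85%, against 10.9% and 2.14% of all genes. The median log2 fold change was 0.35, against -0.23 over all genes. RPS6, the ribosomal protein that S6 kinases phosphorylate, had means of 82459.6 ± 5744 in MVs and 6540.4 ± 312 in EXOs, and the elongation factor EEF2 had 35920.3 ± 1403 and 2769.8 ± 409.7. SEC13 and SEH1L, which the GATOR2 complex shares with the nuclear pore, had 2499 ± 448 against 122 ± 13.5 and 1699 ± 177 against 420.2 ± 76.8. TFE3, the lysosomal transcription factor, had 2628 ± 406 against 247 ± 259. NPRL2 of GATOR1, KPTN of KICSTOR, CAB39, which activates STK11, and RB1CC1, a partner of ULK1, were also higher in MVs. Of these 9 genes, 6 had a mean above the background level in MVs, while NPRL2, KPTN and CAB39 did not. ULK2, a relative of ULK1, had 495 ± 56.7 against 1048 ± 131, under the background level in both fractions.

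Other signals moved with the same comparison. Of 11 listed pluripotency markers, 10 were measured and all 10 were higher in MVs, against 10.9% of all genes. The MVs arrays had a summed signal of 64976 to 67281, the EXOs arrays 12947 to 15932 and the hESEVs arrays 19452 to 21648, and their means lay above background for 10, 3 and 7 genes. Of 14 markers of differentiated cells, 0 were higher in MVs and 2, EOMES and HAND1, were higher in EXOs. For these the sum lay at 5610 to 6293 in MVs, EXOs had 9087 to 10123 and hESEVs had 7076 to 8169, with 0, 1 and 1 genes above background. A higher sum in EXOs was not particular to these markers. The 31 tissue-restricted genes behind the background level reached at most 14518 on an MVs array and at least 19810 on an EXOs array. Their median log2 fold change was -0.59, against -0.64 for the differentiated markers, with 1 gene called higher in MVs and 3 in EXOs. The cause of either shift was not tested. Control probe sets at both ends of a transcript gave a log2 ratio of 3′ to 5′ signal for GAPDH of 1.53 ± 0.0036 (SD, n = 3) in MVs, 0.667 ± 0.17 (n = 3) in EXOs and 1.04 ± 0.12 (n = 3) in hESEVs. For ACTB the ratio was 4.57 ± 0.080, 2.61 ± 0.14 and 3.24 ± 0.14 (SD, n = 3 each). Both differed between MVs and EXOs without overlap (exact permutation p = 0.1, two-sided, the smallest that 3 against 3 arrays allow). By electrophoresis, the study found the RNAs of MVs to be far longer than those of EXOs. It also reported unequal GAPDH mRNA levels between these fractions. What the ratios say about RNA length was not tested. The part of the marker and ratio differences in the results for mTOR pathway genes was not tested either.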

How the data were processed

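Total RNA of 3 MVs, 3 EXOs and 3 hESEVs samples was hybridized to Affymetrix HG-U133 Plus 2.0 arrays. The authors deposited MAS5 signals, a linear intensity per probe set scaled to the same trimmed mean on each array (500.0 once 2% of probe sets are trimmed at either end). The MAS5 version is not given in the sources used here. The study's RMA values and software for its own comparison were not used. The labels give 200g and 300g for the first clearing spin of MVs, in different fields. The study calls the samples biological and states that MVs and EXOs came from 3 hESC cultures. The replicate numbers are not stated to pair them.

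Before log2, a floor of 32 was set on the signals. Apart from 62 controls, all 54613 probe sets were fitted with limma 3.58.1 in R 4.3.3 (lmFit, eBayes with a trend, two-sided, Benjamini-Hochberg adjustment over all of them). MVs and EXOs were compared on their 6 arrays, and hESEVs in a fit of all 9. Calls needed an adjusted p under 0.05 and 2-fold, the study's fold. Folds are ratios of geometric means after the floor. A gene's representative is the brightest, by mean log2, of the probe sets paired with it alone. Of the 103 member probe sets, 1 is paired with FLCN and another gene.

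Members, roles, other pathway genes and markers were chosen with earlier results of these data known. All arrays are given for called genes, MTOR, RPTOR and RICTOR, and other members by means or counts. The arrays of TSC2, PRKAA2 and second probe sets were added after their values were seen. In simulated data of MVs and EXOs, 200 of 54613 probe sets, all above the median mean signal, were given a log2 difference of 1.5 or 3. Of these, 26% and 64% were found, with 3 false calls. The real comparison called far more probe sets, 3949 higher and 1078 lower in MVs. The simulated rates therefore do not carry over to it or to members with low signals. The number of arrays limits the precision. Array correlations within groups were 0.765 to 0.827, and no array was a duplicate. Tables and figures used Python 3.11.15, pandas 2.3.3, numpy 2.4.6 and matplotlib 3.10.9. The alternatives are given in the closing section.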

Additional observations from a re-analysis of the deposited data

How the results depend on the processing

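Of the 10 called genes, EIF4EBP1, LAMTOR2 and LAMTOR5 kept their direction and their call under every alternative run. LAMTOR4 and MLST8 did so under every alternative that gave a value, since their only probe set is marked as shared and they have none without shared probe sets. For the 10 genes, 169 of 194 values kept direction and call, 23 lost the call and 2, both of RHEB, changed sign (-0.27 without shared probe sets, -0.0069 with probe sets averaged). Of 608 values of the 31 genes not called, 32, from 14 genes, changed sign and 12 gained a call. TSC2 was among them, with 0.38 with probe sets averaged. Member probe sets higher in MVs numbered 15, but 4 without shared probe sets and 9 by the methods' t-test after adjustment, and member genes higher in MVs numbered 4 in place of 9 without shared probe sets. The counts higher in EXOs, 1 probe set and 1 gene, were 2 probe sets with quantile normalization. They were 3 and 2 with a floor of 1, with a filter on low signals and with all 9 arrays, 5 and 2 by limma without adjustment, 4 and 2 by the methods' t-test, and 0 and 0 with median centring and without a trend. The gene count was 0 with probe sets averaged and 2 when 1 probe set per gene was tested. Probe sets lower in hESEVs than in MVs, 7, were 12 with median centring, 2 without shared probe sets, 12 by limma without adjustment and 11 by the methods' t-test. Those higher, 2, were 0 with median centring, without a trend and by the adjusted t-test. Probe sets higher in hESEVs than in EXOs, 3, were 1 without a trend, 6 without adjustment by either test and 0 by the adjusted t-test, and those lower, 0, were 4 by limma without adjustment. With each replicate left out in turn the counts ran from 9 to 15 and 0 to 1 (probe sets higher and lower in MVs), 6 to 9 and 0 to 1 (genes), 1 to 2 and 3 to 9 (higher and lower in hESEVs than in MVs), and 1 to 3 and 0 to 0 (higher and lower in hESEVs than in EXOs). Of probe sets higher in MVs there were 9 without MVs replicate 3. DEPTOR lost its call without MVs replicate 1 or 2 or EXOs replicate 1, and the gene counted without MVs replicate 2 was TSC2. With the replicate block, 11 probe sets and 7 genes were higher in MVs, 1 probe set was higher in hESEVs than in MVs, and RPTOR and MAPKAP1 lost their calls. Same-numbered MVs and EXOs arrays did not deviate together (r -0.006, -0.006 and 0.013), and no pairing was taken. This check covers a single numbering and cannot exclude that fractions shared a culture. Median centring moved the median over all probe sets from -0.29 to -0.06, and quantile normalization to -0.15. The cause of these changes was not tested. Member counts under the alternatives, here and above, come without shares over all probe sets. They show how calls moved and are no result about the members. Signals near background limit the size of the folds.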
